A study of Caenorhabditis elegans with 3 samples.

Results

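The F-box genes of the classes fbxa, fbxb and fbxc of the nematode Caenorhabditis elegans were examined on 2-colour DNA microarrays that compared early L4 hermaphrodites with a mixed reference. Members were taken by name: every probe that the platform annotation assigned to 1 gene symbol of these classes, which gave 264 probes for 261 genes out of 15159 genes tested. They comprised 137 fbxa, 84 fbxb and 40 fbxc genes. No measured value entered this rule by name, but it was set with earlier results of these data known. There was 1 group of 3 arrays, each with 1 of 3 preparations of early L4 mRNA in channel 2 and mRNA of a wild-type mixed reference in channel 1. L4 is the last larval stage, and the reference carries no stage in its label, so a ratio compares early L4 worms with an unspecified mixture. The labels give no genotype for the L4 worms, no age in hours and no culture condition. They do not say whether the preparations were separate cultures, so a p-value here speaks of array-to-array spread, which may be technical.

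An F-box protein is the exchangeable adapter of an SCF ubiquitin ligase. Its F-box binds a Skp1-related protein, which in C. elegans is encoded by the skr genes, and the rest of the protein binds the target to be ubiquitinated. Skp1 in turn sits on a cullin that carries a RING protein and the ubiquitin-conjugating enzyme. Nematodes have a greatly expanded set of F-box genes, many of them in local arrays of related copies, and many fbxa proteins carry a second domain named after FOG-2, the F-box protein of hermaphrodite sperm production. For most fbx genes named below no individual function is stated here.

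Each value is the log2 of the ratio between both channels. A positive ratio was taken to mean more RNA in early L4, a likely direction since the sample descriptions put early L4 before the reference, but no source used here states the numerator. Every sign below would turn with it. Each array was centred on its own median, so 0 is the median probe. "Rose" and "fell" mean a Benjamini-Hochberg adjusted p under 0.05 in limma, a linear model with a moderated variance, fitted over all genes against 0. The error is the SD over the 3 arrays unless stated. In whole-worm RNA, fewer cells of a type and less RNA per cell cannot be told apart.

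The stage label was set against marker lists. Of 33 sperm genes 30 rose, with a median log2 ratio of 1.82, against 12.6% of all genes tested. Most of these are msp genes, related copies, so their probes may share RNA. Of 12 oocyte, eggshell and yolk genes 10 fell, with a median of -2.25, against 10.1% of all genes. The yolk gene vit-2 fell, while vit-6 had a mean of 0.36 and did not pass (limma adjusted p = 0.291). All 5 late larval cuticle and molting genes rose. Of 6 male neuron and tail genes 0 passed in limma, and 0 had an unadjusted p under 0.05. Over all genes these shares were 22.7% and 34.7%, and 6 genes are too few to be told apart from them. The marker shifts lie in the same RNA as every ratio below, and their part in the fbx values was not tested. The 3 arrays correlated with r between 0.643 and 0.809 over all genes, lowest between preparations 1 and 3.

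As a family the fbx genes stayed near the array median, and most of those that passed were fbxa genes. Of the 261 members 11 rose, 25 fell and 225 did not pass, which is 13.8% called against 22.7% of all genes tested. Split by direction, 4.21% of members rose against 12.6% of all genes, and 9.58% fell against 10.1%. The share that fell was thus near the background, while the share that rose was below it. The median of the members' mean log2 ratios was -0.11, against -0.01 over all genes, with medians of -0.12, -0.11 and -0.16 on the arrays of preparations 1, 2 and 3. A mean between -0.5 and 0.5 was found for 188 members, 72.0%, against 62.4% of all genes. With a change of 2-fold or more also required, 5 of 261 members rose, against 1291 of 15159 genes (8.52%). Under the same rule 10 of 261 fell, against 911 of 15159 (6.01%). Both were smaller shares of the members than of all genes. Together these were 5.75% of members, against 14.5% of all genes. Without preparation 2 the count of members past the threshold went from 36 to 20, and that of all genes from 3444 to 2423.

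The 3 classes differed in how far their members spread. Of 137 fbxa genes 11 rose and 17 fell, 20.4% called, which is near the background of 22.7%. Of 84 fbxb genes 0 rose and 6 fell, 7.14% called. Of 40 fbxc genes 0 rose and 2 fell, 5% called. At an unadjusted p under 0.05, limma gave 1 higher and 15 lower fbxb genes, and 0 higher and 6 lower fbxc genes. The lower ones were 17.9% and 15% of their classes, near the 16.6% of all genes, while 18.1% of all genes were higher at that threshold. Hence all 11 members that rose were fbxa genes. Without preparation 2 that count was 4, and the fbxb genes that fell went from 6 to 1. That fit also called fewer genes of all kinds, as given above. After quantile normalization 12 fbxb genes fell, and 4054 genes of all kinds passed, against 3444 in the main fit. The difference between the classes was not tested, because genes of a class are not replicates.

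Class medians lay close together, while the ranges did not. The median of the mean log2 ratios was -0.04 for fbxa, -0.17 for fbxb and -0.23 for fbxc. On the single arrays the fbxa median was 0.00, -0.08 and -0.14 for preparations 1, 2 and 3, the fbxb median -0.01, -0.22 and -0.16, and the fbxc median -0.35, -0.01 and -0.22. The order of the classes was the same on the arrays of preparations 1 and 3 and differed on that of preparation 2, where fbxc was the highest, and the ranges of the class medians overlap. Mean ratios ran from -2.29 to 1.98 in fbxa, from -1.998 to 0.59 in fbxb and from -1.27 to 0.52 in fbxc. The SD of the means between genes was 0.64, 0.42 and 0.37 for the 3 classes, against 0.77 over all genes. A mean below 0 was found for 77 fbxa, 53 fbxb and 29 fbxc genes. In fbxc only 11 of 40 means were above 0, 27.5% against 49.6% of all genes tested.

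**Figure D1:**
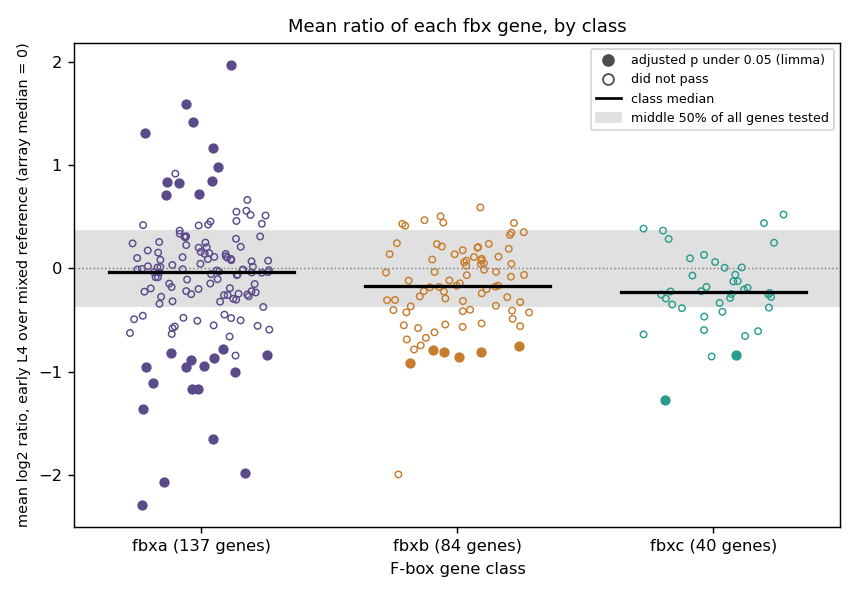
Mean log2 ratio (y axis, early L4 over mixed reference, array median at 0) of each gene of the 3 fbx classes (x axis, with random sideways spread). Filled points passed limma at an adjusted p under 0.05, open points did not, black lines are class medians, and the grey band holds the middle 50% of all genes tested. Every filled point above 0 is an fbxa gene, and the lone low fbxb point at -1.998 is fbxb-101, which was measured on 2 arrays only.

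The fbxa genes that fell included the largest differences of the family. fbxa-164 (C08E3.7) had log2 ratios of -2.31, -2.42 and -2.15 on the arrays of preparations 1, 2 and 3, a mean of -2.29 ± 0.14 (SD, n = 3) or 4.90-fold lower (limma adjusted p = 0.000143). fbxa-24 (F54D10.2) had -2.13, -2.09 and -2.004, a mean of -2.08 ± 0.06 or 4.21-fold lower (limma adjusted p = 0.000207). In both genes all arrays were low and within 0.3 of each other. fbxa-69 (F54B8.3) had -1.53, -2.14 and -2.28, with a mean of -1.98 ± 0.40 (limma adjusted p = 0.000423). fbxa-215 (Y45F10C.3) had -0.93, -1.63 and -2.40, with a mean of -1.65 ± 0.74 (limma adjusted p = 0.00296). Both were low on every array, but in fbxa-215 the arrays were 1.48 apart.

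A further group of fbxa genes fell by about 2-fold. fbxa-165 (C08E3.8) had -1.51, -1.37 and -1.20, with a mean of -1.36 ± 0.16 (SD, n = 3; limma adjusted p = 0.00176). fbxa-170 (C36C9.3) had -0.77, -1.47 and -1.25, with a mean of -1.17 ± 0.36 (limma adjusted p = 0.00581). fbxa-3 (T08E11.7) had -1.35, -0.90 and -1.07, with a mean of -1.11 ± 0.23 (limma adjusted p = 0.0057). These 3 genes were low on all arrays, with no array far from the others. fbxa-97 (C18B12.5) had -1.83, -0.78 and -0.90, with a mean of -1.17 ± 0.58 (limma adjusted p = 0.00991). fbxa-186 (F47H4.6) had -1.54, -0.83 and -0.66, with a mean of -1.01 ± 0.47 (limma adjusted p = 0.0151). In both of these, preparation 1 was the lowest, and both are listed as pseudogenes in the gene table of assembly WBcel235. The remaining 8 fbxa genes that fell had means from -0.96 to -0.79. They were fbxa-2, fbxa-162, fbxa-71, fbxa-206, fbxa-146, fbxa-181, fbxa-29 and fbxa-55, named here after their values were seen.

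The fbxa genes that rose varied more between arrays. fbxa-202 (T28C12.3) had log2 ratios of 2.69, 2.11 and 1.13, a mean of 1.98 ± 0.79 (SD, n = 3) or 3.93-fold higher (limma adjusted p = 0.00133). fbxa-72 (F31F4.15) had 1.09, 1.35 and 2.35, a mean of 1.59 ± 0.66 or 3.02-fold higher (limma adjusted p = 0.00281). All arrays were high for both, yet preparation 3 was the lowest for fbxa-202 and the highest for fbxa-72. fbxa-196 (T05H4.2) had 1.78, 1.70 and 0.78, with a mean of 1.42 ± 0.55 (limma adjusted p = 0.00363). fbxa-125 (B0511.3) had 1.34, 1.75 and 0.86, with a mean of 1.32 ± 0.44 (limma adjusted p = 0.00384). In these too preparation 3 was the lowest. These 4 genes passed with any 1 preparation left out, as did the 10 members with the lowest means among those that fell.

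The other 6 named fbxa genes that rose did not pass without preparation 2. fbxa-166 (C08E3.9) had 0.69, 2.26 and 0.56, with a mean of 1.17 ± 0.95 (SD, n = 3; limma adjusted p = 0.029). fbxa-224 (ZK1290.9) had 0.48, 1.92 and 0.55, with a mean of 0.98 ± 0.81 (limma adjusted p = 0.0415). In both, preparation 2 stood well above the other arrays. Without it their means were 0.63 and 0.52, with limma adjusted p = 0.273 and 0.399. fbxa-52 (F07G6.6) had 0.61, 1.33 and 0.59, with a mean of 0.84 ± 0.42 (limma adjusted p = 0.0305). Without preparation 2 its mean was 0.60 (adjusted p = 0.299).

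Of the remaining genes that rose, 3 had arrays closer together or ranked otherwise. fbxa-178 (F17A9.1) had 1.20, 0.98 and 0.34, with a mean of 0.84 ± 0.45 (SD, n = 3; limma adjusted p = 0.0326). fbxa-207 (Y102A5C.3) had 0.87, 1.01 and 0.60, with a mean of 0.83 ± 0.21 (limma adjusted p = 0.0224). Both are listed as pseudogenes, and both were above 0 on every array. fbxa-116 (Y113G7B.1) had 0.81, 0.69 and 0.65, with a mean of 0.72 ± 0.08 (limma adjusted p = 0.0363). Its arrays were within 0.152 of each other. Without preparation 2 their means stayed close to these values, at 0.77, 0.74 and 0.73, with an adjusted p of 0.151, 0.173 and 0.176. Without preparation 1 fbxa-178 had an adjusted p of 0.0722, and without preparation 3 fbxa-116 had 0.141. The last member that rose, fbxa-65 (C17B7.11), had a mean of 0.71 ± 0.23 (limma adjusted p = 0.0435) and was named after its values were seen.

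**Figure D2:**
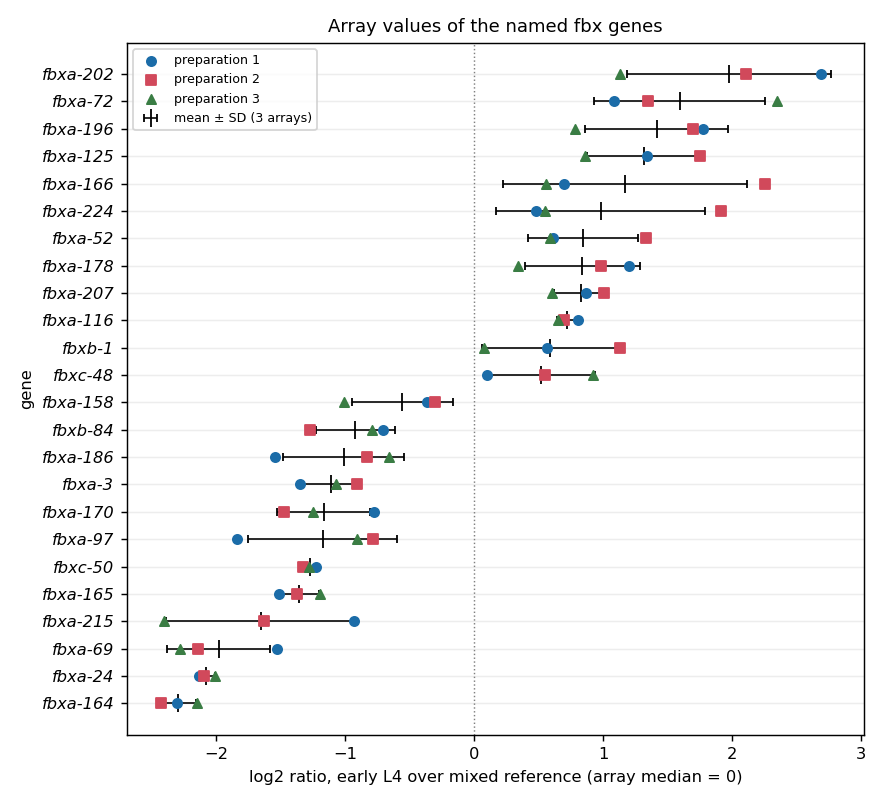
Log2 ratios (x axis, early L4 over mixed reference) of the 24 fbx genes named by rule (y axis), with 1 coloured point for each preparation and black bars for the mean ± SD of 3 arrays. fbxa-164, fbxa-24 and fbxc-50 have the tightest low values, and fbxa-166 and fbxa-224 each have 1 high point, from preparation 2.

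In the fbxb class the called differences were small. The lowest member measured on all arrays, fbxb-84 (T17A3.7), had -0.70, -1.27 and -0.79, with a mean of -0.92 ± 0.31 (SD, n = 3; limma adjusted p = 0.0161). It was below 0 on every array, and without preparation 2 it did not pass (adjusted p = 0.163). The other 5 that fell, fbxb-37, fbxb-24, fbxb-71, fbxb-81 and fbxb-19, had means from -0.86 to -0.76 and were picked with their values in view. The highest member, fbxb-1 (T26H2.1), had 0.57, 1.13 and 0.08, with a mean of 0.59 ± 0.53, and did not pass (limma adjusted p = 0.128). Of 83 fbxb genes measured on all arrays, 31 were below 0 on every array and 10 above 0 on every array. Over all 15128 genes measured on all arrays these counts were 4174 and 3962.

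fbxb-101 (Y63D3A.3) was the member whose arrays differed most, and it was named for that after its values were seen. It had no value for preparation 1, -4.002 for preparation 2 and 0.01 for preparation 3. The fit therefore rested on 2 arrays that went apart, and the gene did not pass (mean -1.998, limma adjusted p = 0.088). The next widest was fbxb-76 (H02I12.2), with 1.74, -0.40 and -0.01, where preparation 1 alone was high.

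The fbxc class had 2 called genes and no member above 0.52. Its median of -0.23 was -0.11 without preparation 1, and the fbxb median, at -0.19, was then the lowest of the 3 classes. fbxc-50 (C17F4.5) had -1.22, -1.32 and -1.28, a mean of -1.27 ± 0.05 (SD, n = 3) or 2.42-fold lower (limma adjusted p = 0.00227). Its arrays lay within 0.1 of each other, and it passed with any 1 preparation left out. fbxc-47 (M02B7.1), named after its values were seen, had -1.17, -0.56 and -0.80, with a mean of -0.84 ± 0.31 (limma adjusted p = 0.0241). At the other end fbxc-48 (C08G5.2) had 0.10, 0.55 and 0.92, with a mean of 0.52 ± 0.41 (limma adjusted p = 0.15). It was above 0 on every array without passing, and it did pass without preparation 1 (mean 0.73, adjusted p = 0.0368). Of the 40 fbxc genes, 16 were below 0 on every array and 5 above 0 on every array, against 4174 and 3962 of 15128 genes of all kinds.

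Agreement between arrays was lower across fbx genes than across all genes. Over the 259 members measured on all arrays, preparations 1 and 2 gave a Pearson's r of 0.490, preparations 1 and 3 one of 0.473, and preparations 2 and 3 one of 0.647. The values over all genes were 0.684, 0.643 and 0.809. Between preparations 2 and 3 the fbxa genes had 0.685, the fbxb genes 0.544 and the fbxc genes 0.558. Between preparations 1 and 2 the fbxb genes had 0.312. These correlations describe the arrays only, since all have a mixed reference in channel 1. A set of genes with a narrow spread can also give a lower r for the same error, but whether this lowered r here was not tested. The median SD between arrays was 0.38 for members and 0.36 for all genes. By class it was 0.42 for fbxa, 0.33 for fbxb and 0.34 for fbxc. One sign on all arrays was seen in 123 members, 47.5%, against 53.8% of all genes.

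**Figure D3:**
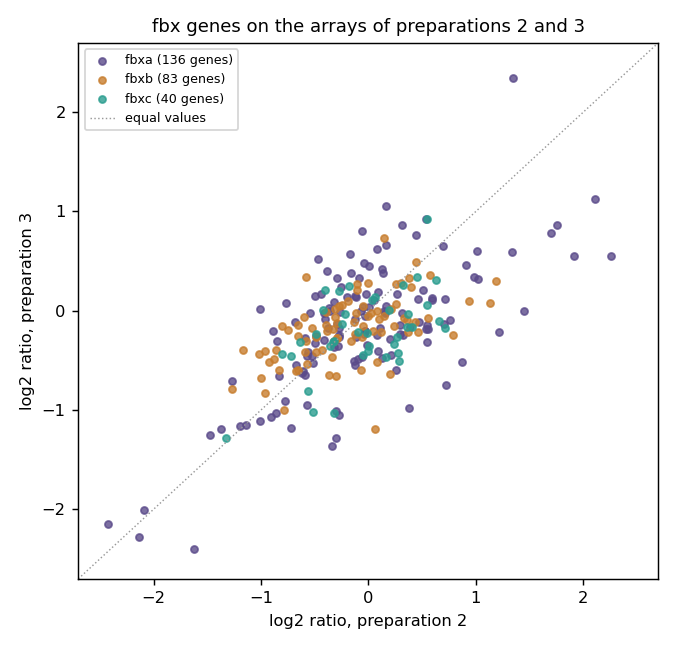
Log2 ratios of the 259 fbx genes measured on all arrays, preparation 2 on the x axis against preparation 3 on the y axis, coloured by class. Pearson's r was 0.647 over all of them, and the points far from the centre at either end of the dotted line of equal values are mostly fbxa genes.

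The gene table of WBcel235 lists 391 fbx genes of these classes, of which 130 had no probe of their own here. It lists 40 of the 261 measured members as pseudogenes, 29 of them fbxa. Of these 40, 2 rose and 4 fell, 15% called, and of the 221 protein-coding members 9 rose and 21 fell, 13.6% called, against 22.7% of all genes. The medians were 0.00 for the pseudogenes and -0.13 for the protein-coding members, and the difference was not tested. The probe sequences were not used here, so RNA of a related copy that binds the same probe cannot be told apart from RNA of the named gene.

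Many fbx genes sit side by side on the chromosomes. In the order of protein-coding genes and pseudogenes of WBcel235, 237 of the 391 fbx genes, 60.6%, had another fbx gene as direct neighbour, in 69 runs of up to 10 genes. Of 80 neighbouring pairs with both members measured, 49 had means of the same sign, 61.3%, against 53.7% of all neighbouring gene pairs. In 3 pairs, 3.75%, both members were called, and in 15 pairs, 18.8%, only 1 was, against 7.06% and 32.4% of all neighbouring gene pairs. The 3 pairs were fbxa-146 with fbxa-24, fbxa-164 with fbxa-165, and fbxa-165 with fbxa-166. In the last the directions were opposite. That is 1 of 3 pairs with both called, against 284 of 841 over all genes. The 3 pairs are too few to compare the shares, and fbxa-165 is in more than 1 of them.

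The C08E3 run held called members of both directions within a few genes. It has 9 fbxa genes in 10 consecutive genes, interrupted by btb-15, and all 9 were measured. In order they were fbxa-161, fbxa-162, fbxa-163, btb-15, fbxa-164, fbxa-165, fbxa-166, fbxa-158, fbxa-159 and fbxa-160. fbxa-162 (C08E3.5), a listed pseudogene, had -0.74, -1.01 and -1.11 and fell (mean -0.95 ± 0.19, SD, n = 3; limma adjusted p = 0.0112). The neighbours fbxa-164 and fbxa-165 fell, as given above, and the next gene, fbxa-166, rose. On every array fbxa-164 and fbxa-165 were below -1.1 and fbxa-166 above 0.5. Genes called in opposite directions with 1 sign on all arrays cannot overlap, so this adds nothing to their calls. The call of fbxa-166 needed preparation 2, and fbxa-162 did not pass in every fit with 1 preparation left out.

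The rest of the C08E3 run did not pass. fbxa-158 (C08E3.10), known in C. elegans as an adapter of the cullin CUL-6 in the response to intracellular infection, had -0.36, -0.30 and -1.01, with a mean of -0.56 ± 0.39 (SD, n = 3; limma adjusted p = 0.123). All arrays were below 0, with preparation 3 the lowest. fbxa-159 had a mean of -0.58 ± 0.37, fbxa-163 of -0.46 ± 0.73, fbxa-160 of -0.32 ± 0.51 and fbxa-161 of -0.06 ± 0.15. The interrupting btb-15 had 0.41 ± 0.23. Means in the run thus spanned 3.46 log2 units, from -2.29 to 1.17. fbxa-75, the other known CUL-6 adapter of this class, had no probe of its own and was not analysed here.

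**Figure D4:**
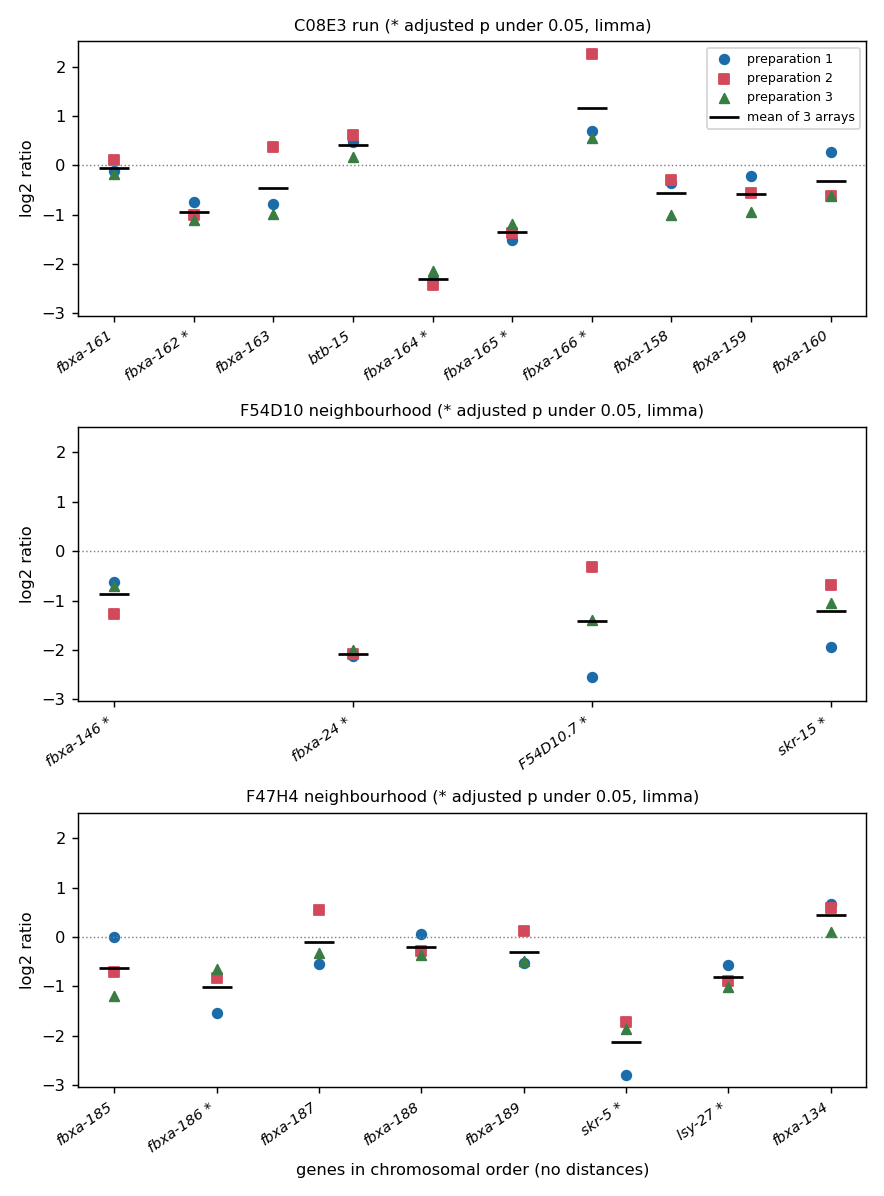
Log2 ratios (y axis, early L4 over mixed reference) of consecutive genes in chromosomal order (x axis, no distances) in the C08E3, F54D10 and F47H4 neighbourhoods, with 1 coloured point for each preparation and a bar for the mean. fbxa-164 at -2.29 and fbxa-166 at 1.17 stand 2 genes apart, all 4 genes of F54D10 are below 0, and skr-5 is the lowest gene of F47H4.

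In 2 other places fbxa genes lie beside genes of Skp1-related proteins, their binding partners; these places were picked after the values were seen. In F54D10 the order is fbxa-146, fbxa-24, F54D10.7 and skr-15, and all 4 fell. fbxa-146 had -0.62, -1.27 and -0.71, with a mean of -0.87 ± 0.35 (SD, n = 3; limma adjusted p = 0.0233). skr-15 (F54D10.1) had -1.94, -0.68 and -1.05, with a mean of -1.22 ± 0.65 (limma adjusted p = 0.0101). Every array was below 0 for both. fbxa-146 did not pass in every fit with 1 preparation left out, while skr-15 did. F54D10.7 had -2.55, -0.32 and -1.39, with a mean of -1.42 ± 1.12 (limma adjusted p = 0.0197).

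In F47H4 the order is fbxa-185 to fbxa-189, then skr-5, lsy-27 and fbxa-134. skr-5 (F47H4.10) had -2.79, -1.72 and -1.87, a mean of -2.13 ± 0.58 (SD, n = 3) or 4.37-fold lower (limma adjusted p = 0.000469). Among the fbxa genes there only fbxa-186 passed. fbxa-185, fbxa-187, fbxa-188 and fbxa-189 had means of -0.64, -0.11, -0.19 and -0.30, and fbxa-134 had 0.45 ± 0.31. lsy-27 fell, with -0.82 ± 0.23 (limma adjusted p = 0.0245). In contrast to F54D10, the fbxa genes around skr-5 thus mostly stayed within 0.7 of the array median.

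In another place, also picked after the values were seen, 2 fbxa genes were called in opposite directions with 1 gene between them. fbxa-206 (Y102A5C.1) had -0.31, -1.19 and -1.16, with a mean of -0.89 ± 0.50 (SD, n = 3; limma adjusted p = 0.0295). fbxa-207, with the values given above, rose. The gene between, Y102A5C.2, had a mean of -0.08 ± 0.72. Every called member had 1 sign on all arrays, so the values of fbxa-206 and fbxa-207 could not overlap. This adds nothing to their calls. Neither fbxa-206 nor fbxa-207 passed in every fit with 1 preparation left out.

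The core of the ligase was measured beside its adapters. Of 41 listed genes of SCF cores and their regulators 29 were measured, of which 2 rose, 5 fell and 22 did not pass, 24.1% called against 22.7% of all genes, with a median of -0.30. cul-1 (D2045.6), the cullin of the SCF ligase, had 0.79, 0.71 and 0.57, with a mean of 0.69 ± 0.11 (SD, n = 3; limma adjusted p = 0.0422). ubq-2 (ZK1010.1), which encodes ubiquitin fused to a ribosomal protein, had 1.01, 0.46 and 0.70, with a mean of 0.72 ± 0.28 (limma adjusted p = 0.043). Both were high on every array, but neither passed without preparation 2 or without preparation 3 (adjusted p = 0.215 and 0.14 for cul-1, 0.0972 and 0.153 for ubq-2), and ubq-2 also missed without preparation 1 (0.0709). The means in the fits without preparations 2 and 3 were about as large, at 0.68 and 0.75 for cul-1 and 0.86 and 0.73 for ubq-2. The cullin partner of fbxa-158, cul-6, had 0.11 ± 0.07 and did not pass (limma adjusted p = 0.751).

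Of 16 Skp1-related (skr) genes 0 rose and 4 fell in limma, 25% called against 22.7% of all genes tested. Split by direction, 12.6% of all genes rose and 10.1% fell, so the share of skr genes that fell was above that background. At an unadjusted p under 0.05, 0 were higher and 8 lower, 50%, against 16.6% lower over all genes. skr-8 (C52D10.9) had -1.17, -1.66 and -1.91, with a mean of -1.58 ± 0.38 (SD, n = 3; limma adjusted p = 0.00122). skr-9 (C52D10.7) had -2.01, -0.70 and -1.91, with a mean of -1.54 ± 0.73 (limma adjusted p = 0.00403). With skr-5 and skr-15 these are the 4 that fell, and each passed with any 1 preparation left out. The skr genes are related copies, so their probes may share RNA. skr-1, the Skp1 gene of the general SCF ligase, had -0.61 ± 0.04 and did not pass (limma adjusted p = 0.0672). The median over the 16 was -0.52. rbx-2 (R10A10.2), a RING protein gene, had -0.29, -0.90 and -1.07, with a mean of -0.75 ± 0.41 (limma adjusted p = 0.046), and did not pass without preparation 2 or without preparation 3 (means of -0.68 and -0.60, adjusted p = 0.222 and 0.271).

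F-box genes with a function-based name were lower where they passed. Of 11 listed 10 were measured, of which 0 rose and 3 fell in limma, 30% called against 22.7% of all genes, with a median of -0.51. Split by direction, 12.6% of all genes rose and 10.1% fell. At an unadjusted p under 0.05, 0 were higher and 5 lower, 50%, against 16.6% lower over all genes. fsn-1 (C26E6.5), an F-box gene of synapse formation, had -0.48, -0.93 and -1.34, with a mean of -0.92 ± 0.43 (SD, n = 3; limma adjusted p = 0.0213). prom-1 (F26H9.1), of meiotic chromosome pairing, had -1.63, -0.55 and -0.52, with a mean of -0.90 ± 0.63 (limma adjusted p = 0.0385). mfb-1 (DY3.6), related to the muscle atrophy F-box gene, had -0.81, -0.69 and -0.61, with a mean of -0.71 ± 0.10 (limma adjusted p = 0.0392). All were below 0 on every array. Leaving out preparation 2 or 3 ended the calls of fsn-1 (adjusted p = 0.0747 and 0.171) and mfb-1 (0.19 and 0.141). The means were then -0.91 and -0.71 for fsn-1 and -0.71 and -0.75 for mfb-1. Leaving out preparation 1 ended the call of prom-1, with a mean of -0.53 (0.0839).

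**Figure D5:**
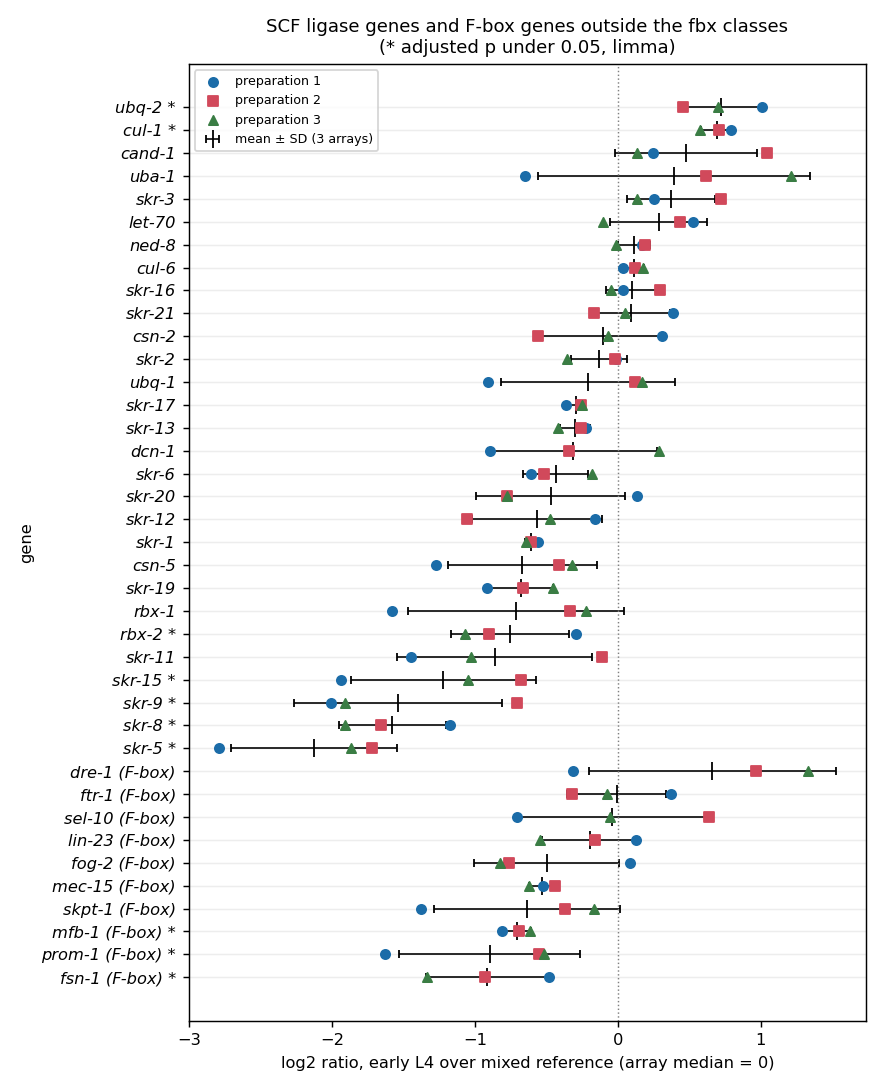
Log2 ratios (x axis, early L4 over mixed reference) of 29 SCF ligase genes and, at the bottom, 10 F-box genes outside the fbx classes (y axis), with 1 coloured point for each preparation and black bars for the mean ± SD of 3 arrays; an asterisk marks an adjusted p under 0.05 in limma. The lowest genes are skr-5, skr-8, skr-9 and skr-15, and cul-1 and ubq-2 are the 2 called above 0.

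MATH and BTB genes form the other large family of ubiquitin ligase adapters in C. elegans, where BTB proteins link targets to a different cullin. Of 94 measured 3 rose and 8 fell, 11.7% called against 22.7% of all genes and 13.8% of fbx members. Their median was -0.18 (-0.08 without preparation 1), against -0.11 for fbx members, and the SD of their means between genes was 0.48, against 0.54. Without preparation 2, and likewise without preparation 3, 1 rose. By class, 7 of 32 bath genes, 2 of 44 math genes and 2 of 18 btb genes passed. The difference between the families was not tested.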

How the data were processed

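The deposited table held, for each of 20000 probes and 3 arrays, log2 values that the authors made from the ratio of the 2 channels. Raised as powers of 2, at least 99.96% of the deposited log2 values gave whole thousandths (within 0.01), so ratios were kept to 3 decimals. The sources used here do not give background correction, normalization, dyes or direction. Deposited medians were 0.054, -0.082 and -0.025, and 19905, 19841 and 19872 probes had a value for preparations 1, 2 and 3.

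Probes were named from the platform annotation, an old one. A single gene symbol was listed for 15655 probes, which were used; 198 with several symbols and 4147 without were not. Of the former, 15569 were found in the WBcel235 gene table through their gene number and 86 through their symbol; the symbols of all 261 members were the same in both. Arrays were centred on their median, probes of a gene were averaged (3 members had more than 1), and genes with at least 2 values were tested two-sided against 0 in limma 3.58.1 (lmFit, eBayes; R 4.3.3) with 2 residual degrees of freedom and 7.59 from the prior, using Benjamini-Hochberg adjustment over 15159 genes and a threshold of 0.05. All members passed this filter, 259 with 3 values and 2 with 2 values. The reference was treated as common to all arrays, and its own spread was not estimated apart from that of the ratios. The fit was tested on simulated data.

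Named by rule were the 10 highest and 10 lowest called members with 1 sign on all arrays, the highest and lowest of each class among members with 3 values, fbxa-75 and fbxa-158 where measured, and called genes of the SCF and other F-box lists. Members and lists were chosen with earlier results of these data known. Gene order came from WBcel235; coordinates are left out, since no source used here names the build of the array. As alternatives, the fit was repeated with uncentred ratios, quantile normalization, complete genes only, trend and robust eBayes, single probes, every probe tested, and each preparation left out. The number of arrays limits the precision, and spot brightness was not used here.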

Additional observations from a re-analysis of the deposited data

How the results depend on the processing

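Over all genes 3444 passed, and the count lay within 1.5 times that in every alternative run (2423 without preparation 2 to 4054 after quantile normalization). The 36 called members became 15 when a 2-fold change was also required and 20 to 39 with 1 preparation left out, of which 14 (4 higher, 10 lower) passed in all 3 such fits. fbxa genes that rose numbered 4 to 10 and fbxb genes that fell 1 to 9 with 1 preparation left out; quantile normalization gave 12 fbxb genes that fell. 0 to 1 fbxc genes rose in those fits, the 1 without preparation 1. In the SCF list, 0 to 2 rose with 1 preparation left out and 0 with trend and robust eBayes, and 8 fell after quantile normalization. In the other F-box list, 1 to 3 fell and 0 to 1 rose with 1 preparation left out, and the median ran from -0.48 to -0.41. In the MATH and BTB list 1 to 2 rose with 1 preparation left out. Class medians moved by less than the SD of the array medians in every alternative run. Spearman's rho was 0.362 in place of 0.490 between preparations 1 and 2, and 0.545 in place of 0.647 between 2 and 3. Over 34 named genes and 7 alternatives, 211 of 238 values kept direction and side of the threshold. Among the others 26 lost the call and 1 gained it (fbxc-48), and 0 changed direction. Of the 26, 12 came without preparation 2, 6 without preparation 3, 3 without preparation 1 and 5 with trend and robust eBayes. Uncentred ratios, quantile normalization and complete genes only lost 0. fbxb-1, fbxc-48 and fbxa-158 had not passed in the main fit, so they had no call to lose. The cause was not tested for any of these changes. No paired analysis was possible because the labels define a single group.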

Other observations

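4 probes named for several fbx genes were outside the family as chosen by name. The probe shared by fbxc-8, fbxc-1, fbxc-2 and fbxc-4 had log2 ratios of -1.15, -0.76 and -1.14 for preparations 1, 2 and 3, with a mean of -1.02 ± 0.22 (SD, n = 3; limma adjusted p = 0.011 over every probe). Probes of their own gave fbxc-1, fbxc-2 and fbxc-4 means of -0.12, -0.25 and -0.21, so the shared probe read lower than each of them. The probes shared by fbxc-21 with fbxc-22, fbxa-94 with fbxa-95, and fbxa-194 with fbxa-118 had means of -0.44, -0.10 and -0.03 and did not pass (limma adjusted p = 0.219, 0.782 and 0.935).

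3 members had 2 probes each. For fbxb-66 the probes gave means of -0.57 and -0.67, but the low array differed: preparation 2 was lowest with the first probe, at -1.19, and preparation 1 with the other, at -1.08. For fbxa-121 the means were 0.20 and 0.12. For fbxa-140 they were 0.17, over 2 arrays, and -0.25.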
